A study of Mus musculus with 18 samples.

Results

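Endothelial cells line blood and lymphatic vessels, and their identity is marked by a shared set of junction proteins, receptor tyrosine kinases and transcription factors. Factors of the ETS family (Erg, Fli1) and of the SoxF family (Sox7, Sox17, Sox18) act on the regulatory regions of many endothelial genes, and signalling through the VEGF and angiopoietin receptors guides vessel growth. The fetal ovary is vascularised while its germ cells enter meiosis and, around birth, are enclosed in follicles. A set of 32 endothelial genes was chosen by name, as genes known to mark or act in these cells. The set was chosen with earlier results of these data known, and was followed through the deposited arrays. All 32 were on the array and were measured, among 19298 genes in all.

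RNA came from whole ovaries (XX gonads) of wild type mice and of mice knockout for Elavl2, an ELAV-family gene for a protein that binds RNA, at the embryonic stages E15.5 and E17.5 (days after mating) and on the day of birth (P0). Each of the 6 groups of stage and genotype had 3 samples, each on its own 1-colour array, 18 in all. The groups were: E15.5 wild type, E15.5 knockout, E17.5 wild type, E17.5 knockout, P0 wild type and P0 knockout. The Elavl2 allele, the strain, the cells in which the gene is deleted and whether a sample pools animals are not given in the sources used here. Nothing in the labels states that each sample is a different animal. The p-values therefore speak of the spread among these samples, which may be technical. In RNA from a whole organ, fewer cells of a type and less RNA per cell cannot be told apart.

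Levels are given as the log2 of the signal minus that of the 75th percentile on the same array, so a negative level is a signal below that percentile and not an absent one. A change is knockout minus wild type on that log2 scale unless stated, with its standard error (SE) from the linear model over all 18 arrays. A gene is called when limma's Benjamini-Hochberg adjusted p, taken over all 19298 genes, is under 0.05. Levels of different genes are not compared, since each comes from a probe of its own. Between 62.5% and 75.1% of probes per array were well above background. Of the 32 probes used, 31 were well above background on all 18 arrays, the defining markers Pecam1 and Cdh5 included, and that of Flt4 on 14. The arrays were on 7 slides and fell into 2 runs by the form of their file names. All wild type arrays of E15.5, and all of P0, shared a slide with no knockout array, so slide and genotype cannot be told apart there. At E17.5 replicates 1 and 2 of wild type and of knockout were also on different slides, and only replicate 3 of both genotypes shared a slide. The Elavl2 probe changed by -0.11 (adjusted p = 0.75 by limma) at E15.5, -0.87 (adjusted p = 0.00448) at E17.5 and -1.36 (adjusted p = 9.09e-06) at P0. Its place relative to the deleted part is not given in the sources used here, so it checks no label.

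Many of the endothelial genes were higher in knockout than in wild type ovaries at birth, the largest rises being those of Egfl7, Tie1, Fli1, Sox17 and Pecam1, at 1.52 to 1.67 times the wild type signal. At P0, 17 of the 32 rose and none fell by limma's test, against 18.3% of all genes that rose and 16.1% that fell. Their median change was 0.30, where the median over all genes was -0.00087, and 29 of 32 changes were above 0. At E17.5, 4 of the 32 rose and none fell, where 1.33% of all genes rose and 2.86% fell. The median of the 32 was 0.19, against 0.053 for all genes, and 28 changes were above 0. At E15.5 none rose and 1 fell, Tek, where 0.969% of all genes rose and 0.648% fell, and the median was -0.072. At an unadjusted p under 0.05, none of the 32 was higher and 2 were lower at E15.5, where 8.57% of all genes were higher and 6.1% lower. At E17.5, 12 were higher and 1 was lower, where 11.7% and 10.2% of all genes were, and at P0 18 were higher and none lower, where 23.7% and 21.6% were. The mean of the 32 levels, array by array, shows the same order. At P0 it lay between -0.14 and 0.01 in wild type and between 0.24 and 0.32 in knockout, at E17.5 between 0.15 and 0.18 and between 0.30 and 0.41, and at E15.5 between 0.16 and 0.18 and between 0.06 and 0.14. The genotypes did not overlap in this mean at any stage, with knockout below wild type at E15.5 and above it at both later stages. The median of the 32 levels did not show that order at E15.5. It was -0.126, -0.074 and -0.062 in wild type and -0.071, 0.009 and -0.032 in knockout, with overlap. At E17.5 and P0 all knockout medians lay above those of wild type.

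**Figure D1:**
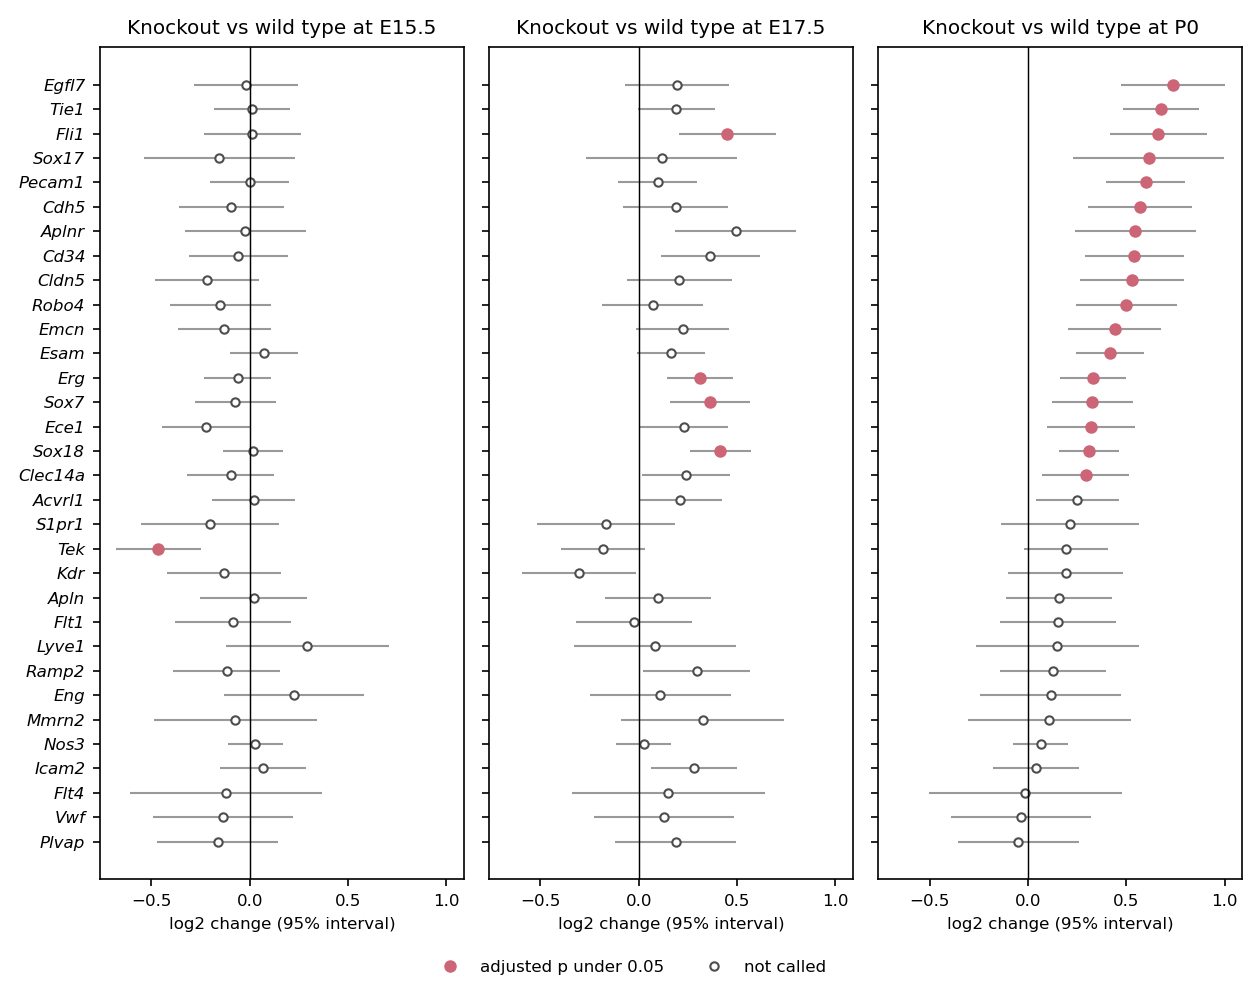
Change of each of the 32 endothelial genes in knockout against wild type ovaries at the 3 stages, as log2 change (horizontal axis) with its 95% interval from the model, genes ordered by their change at P0. Filled points are called (adjusted p under 0.05): 1 gene at E15.5, below 0, then 4 at E17.5 and 17 at P0, all above 0.

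Among groups of endothelial genes by role, which were formed with their values known, transcription factors had the largest share of calls. At P0 all 5 rose, with changes from 0.31 to 0.66, and at E17.5 4 of the 5 rose, all but Sox17. No other endothelial gene was called at E17.5.

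Sox18, a SoxF factor of blood and lymphatic endothelium, had levels of -0.25, -0.12 and 0.04 in the E17.5 wild type samples and 0.11, 0.29 and 0.53 in the knockout samples. The 3 knockout values lay above the 3 wild type values. The change was 0.42 (SE 0.070, adjusted p = 0.00895 by limma), a 1.33-fold higher signal. At P0 the levels were -0.30, -0.43 and -0.25 in wild type and 0.02, -0.01 and -0.07 in knockout, again without overlap, and the change was 0.31 (SE 0.070, adjusted p = 0.00464 by limma). At E15.5 all 6 values lay between -0.11 and 0.01.

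Erg, an ETS factor that maintains endothelial identity, had E17.5 levels of -0.27, -0.26 and -0.52 in wild type and -0.01, 0.10 and -0.21 in knockout. The groups did not overlap, and in both genotypes replicate 3, from the other run, was the lowest. The change was 0.31 at E17.5 (SE 0.077, adjusted p = 0.0416 by limma) and 0.33 at P0 (adjusted p = 0.00578). At P0 the wild type levels were -0.37, -0.26 and -0.16, below the knockout levels of -0.02, 0.23 and -0.01. A second Erg probe, annotated to a RefSeq transcript where the probe used was not, was well above background on 2 arrays and was not kept.

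Fli1, the ETS factor closest to Erg, had E17.5 levels of 0.41, 0.25 and -0.16 in wild type and 0.72, 0.84 and 0.29 in knockout. Knockout replicate 3 lay below wild type replicate 1, so the groups overlapped, while within each run knockout was higher. Fli1 rose by 0.45 (SE 0.11, adjusted p = 0.0432 by limma) at E17.5 and by 0.66 (adjusted p = 0.000796), 1.58-fold, at P0. The P0 groups were apart, with wild type at -0.08, -0.04 and 0.22 and knockout at 0.96, 0.56 and 0.57.

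Sox7 and Sox17 are the other SoxF factors, and Sox17 marks arterial endothelium. Sox7 stood at -0.57, -0.53 and -0.60 in E17.5 wild type and at -0.19, -0.05 and -0.36 in knockout, and it rose by 0.36 (SE 0.093, adjusted p = 0.0478 by limma). Its P0 rise of 0.33 (adjusted p = 0.0167) came with a small overlap, since the highest wild type sample was at -0.72 and the lowest knockout sample at -0.74. Sox17 at P0 had levels of -0.35, -0.46 and 0.34 in wild type and 0.36, 0.39 and 0.64 in knockout, so the third wild type sample lay close to the knockout samples. The change was 0.62 (SE 0.17, adjusted p = 0.0163 by limma), with 3 of 3 knockout values above the wild type values. At E17.5 it was 0.12 (adjusted p = 0.735).

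The E17.5 calls of Sox7, Erg and Fli1 were close to the threshold, and that of Sox18 was farther from it. With the replicate number as a block, Sox18 kept its call and Aplnr gained one (adjusted p = 0.042), while Sox7 (adjusted p = 0.0768), Erg (0.108) and Fli1 (0.133) lost theirs. Within the run that holds replicate 3 the knockout minus wild type difference was 0.48 for Sox18, 0.31 for Erg, 0.45 for Fli1 and 0.24 for Sox7. Within the run of replicates 1 and 2, where the genotypes were on different slides, it was 0.38, 0.31, 0.45 and 0.42. Of the 4 calls, none was left without E17.5 wild type replicate 3, knockout replicate 2 or knockout replicate 3, and 2 calls were made without E17.5 knockout replicate 1 or P0 wild type replicate 2. A single call was made without E15.5 wild type replicate 2 or 3, E15.5 knockout replicate 1 or 2, or E17.5 wild type replicate 1 or 2. At P0, leaving out wild type replicate 2 or knockout replicate 1 ended the call of Sox7, and leaving out wild type replicate 1 or 2 or knockout replicate 3 ended that of Sox17.

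**Figure D2:**
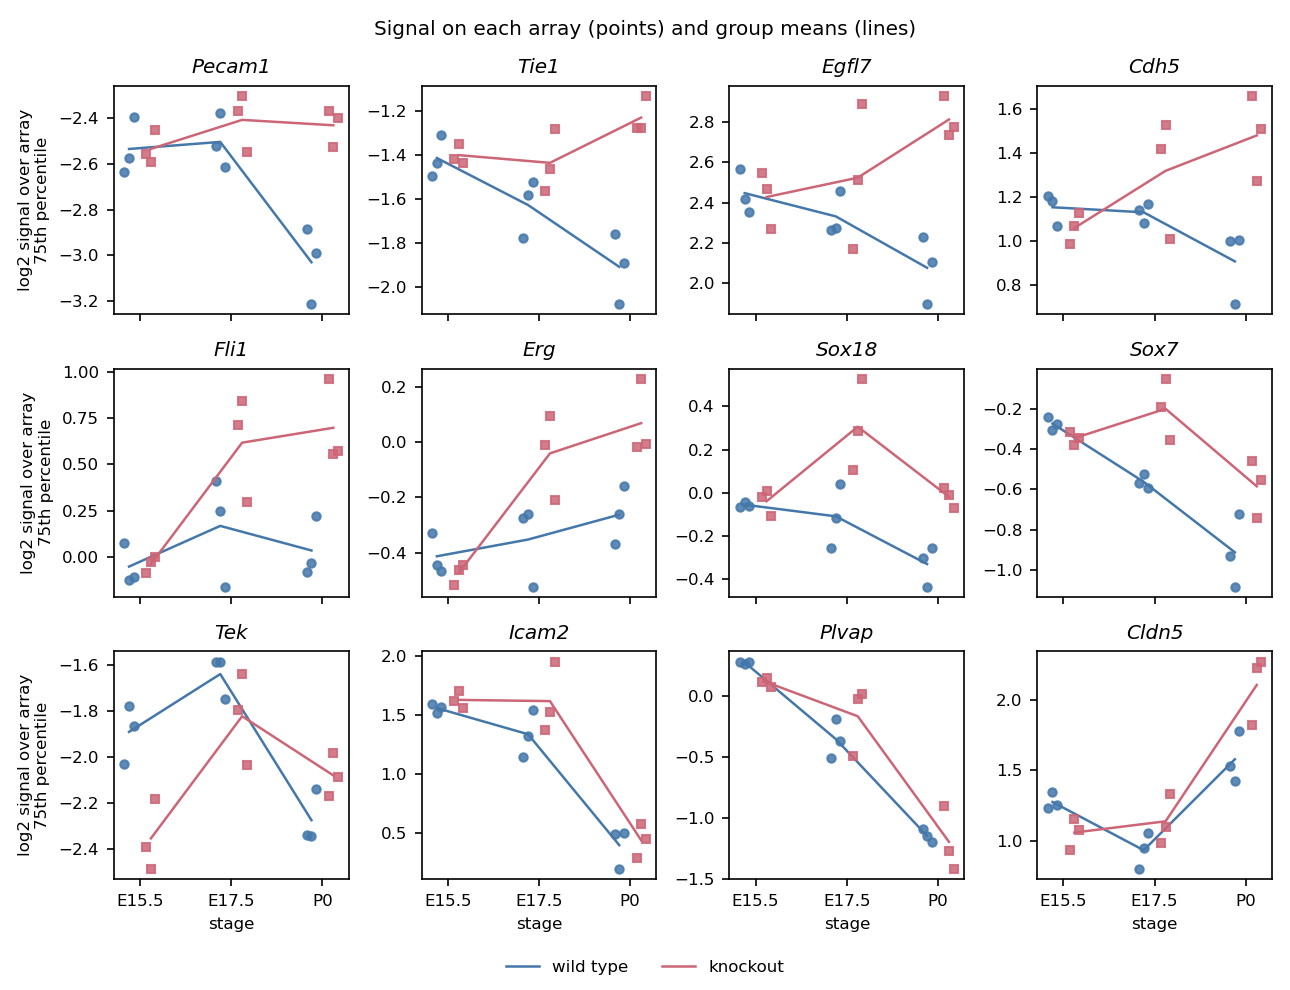
Log2 signal relative to the array's 75th percentile (vertical axis) by stage for 12 of the endothelial genes, with a circle for each wild type array, a square for each knockout array and a line through the group means; replicates 1, 2 and 3 run from left to right within a group. Knockout lies above wild type without overlap for Pecam1, Tie1, Egfl7, Cdh5, Fli1 and Cldn5 at P0. The same holds for Erg and Sox18 at both E17.5 and P0, and for Sox7 at E17.5. At E15.5 knockout lies below wild type without overlap for Tek, Sox7, Plvap and Cldn5. Among all genes, 23% lie above at P0, 10.9% above at E17.5 and 10.8% below at E15.5. Icam2 and Plvap fall by P0 in both genotypes.

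ETS factors bind a short DNA core, GGAAG in its common form, so the 250 bases before the start of endothelial genes were searched for it on both strands (CTTCC being the other strand). RefSeq promoters of build GRCm38.p6 were at hand for 15 of the 32 genes: Apln, Cd34, Cldn5, Clec14a, Ece1, Egfl7, Emcn, Eng, Erg, Flt1, Flt4, Kdr, Robo4, Tek and Tie1. A gene with several annotated starts was counted when any of its windows held the letters, so more starts give more places for a match. Ece1 had 4 windows, Egfl7 3, Erg 3 and each other gene of the 15 had 1. The letters were found for 13 of these 15 genes (86.7%), and for 66.9% of all 27025 genes with such windows. Of all 32851 windows taken one by one, 64.1% held them. A share of windows was not taken for the 15 genes. A longer FOX:ETS element with the letters AACAGGAA, described in endothelial enhancers and overlapping the ETS core, was found for Egfl7 and Emcn, 2 of the 15, and for 2.50% of all genes. A match describes the letters and is no evidence of binding.

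Windows are shown for Erg, the only gene called at both E17.5 and P0 that has an entry, and for Cd34, Cldn5 and Egfl7, which rose at P0 and had the largest mean change over the 3 stages, sign aside, among the other called genes with one. The window of Cd34 lies at chr1:194938571-194938820 (plus strand), that of Cldn5 at chr16:18776597-18776846 (plus strand), that of Egfl7 at chr2:26580833-26581082 (plus strand) and that of Erg at chr16:95586594-95586843 (minus strand). Where a gene has several starts, the window is that of the start farthest 5′, and capitals mark the ETS core on either strand.
Erg: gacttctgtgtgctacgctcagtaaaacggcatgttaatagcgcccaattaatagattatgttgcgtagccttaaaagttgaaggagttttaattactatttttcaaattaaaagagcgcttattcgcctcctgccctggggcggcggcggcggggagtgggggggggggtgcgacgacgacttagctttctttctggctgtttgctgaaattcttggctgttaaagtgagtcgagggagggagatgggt
Cd34: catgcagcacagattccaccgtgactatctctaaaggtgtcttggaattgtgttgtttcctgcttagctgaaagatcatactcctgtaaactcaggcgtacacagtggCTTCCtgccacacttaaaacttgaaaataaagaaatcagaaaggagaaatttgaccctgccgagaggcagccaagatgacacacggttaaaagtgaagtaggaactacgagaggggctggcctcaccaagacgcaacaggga
Cldn5: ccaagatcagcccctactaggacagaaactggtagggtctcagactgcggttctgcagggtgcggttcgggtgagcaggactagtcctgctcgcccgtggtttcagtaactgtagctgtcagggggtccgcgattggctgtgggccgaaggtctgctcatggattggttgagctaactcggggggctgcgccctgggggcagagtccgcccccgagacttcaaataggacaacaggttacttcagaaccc
Egfl7: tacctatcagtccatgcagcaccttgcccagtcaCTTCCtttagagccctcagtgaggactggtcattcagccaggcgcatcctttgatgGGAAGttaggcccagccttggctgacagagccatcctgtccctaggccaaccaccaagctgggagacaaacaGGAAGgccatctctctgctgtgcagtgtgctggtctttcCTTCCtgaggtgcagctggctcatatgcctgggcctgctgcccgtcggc
The Cd34 window held 1 match, 142 bases before the start. The Egfl7 window held 4, at 216, 160, 88 and 49 bases before the start, and the AACAGGAA element began 92 bases before it. The windows shown for Erg and Cldn5 held no match, and the match that counts for Erg lies at another of its 3 starts.

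Junction and adhesion genes rose at P0, 4 of 5 of them, with a median change of 0.53, and none was called at E15.5 or E17.5. Pecam1, the adhesion molecule of endothelial contacts that is also known as CD31, had P0 levels of -2.89, -3.21 and -2.99 in wild type and -2.37, -2.53 and -2.40 in knockout. All knockout samples were above all wild type samples, and the change was 0.60 (SE 0.091, adjusted p = 0.000379 by limma), 1.52-fold. At the earlier stages Pecam1 was level between genotypes, with changes of 0.00042 at E15.5 and 0.096 at E17.5.

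Cdh5, the cadherin of endothelial junctions, had P0 levels of 1.00, 0.72 and 1.01 in wild type and 1.66, 1.27 and 1.51 in knockout. The change was 0.57 (SE 0.12, adjusted p = 0.00332 by limma), without overlap, and a second Cdh5 probe changed by 0.66. Cldn5, a tight junction claudin, had P0 levels of 1.53, 1.43 and 1.78 in wild type and 1.82, 2.23 and 2.28 in knockout. The lowest knockout sample stood just above the highest wild type sample, and the change was 0.53 (SE 0.12, adjusted p = 0.00495 by limma). Esam, an endothelial junction adhesion protein, rose by 0.42 (SE 0.079, adjusted p = 0.00155), with wild type between -0.27 and -0.03 and knockout between 0.12 and 0.38.

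Icam2, an endothelial ligand of leukocyte integrins, did not follow the other junction and adhesion genes at P0. Its levels were 0.50, 0.20 and 0.51 in wild type and 0.29, 0.58 and 0.46 in knockout, fully interleaved, with a change of 0.042 (95% interval from -0.18 to 0.26).

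Among the 5 receptor tyrosine kinases only Tie1 rose at P0. Tie1, the co-receptor of Tek in angiopoietin signalling, had P0 levels of -1.76, -2.08 and -1.89 in wild type and -1.28, -1.28 and -1.13 in knockout. The groups were far apart, and the change of 0.68 (SE 0.088, adjusted p = 0.000127 by limma), 1.60-fold, had the smallest p of the 32 genes. At E17.5 it was 0.19 (adjusted p = 0.226), and at E15.5 it was 0.013.

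The VEGF receptors were not called at any stage. Kdr, the main signalling receptor for VEGFA, changed by -0.13 at E15.5, -0.30 at E17.5 (adjusted p = 0.201 by limma) and 0.19 at P0 (adjusted p = 0.276). Its E17.5 levels were 1.96, 2.01 and 2.02 in wild type and 1.74, 1.58 and 1.74 in knockout. Kdr was the single endothelial gene of the 32 with all knockout samples below all wild type samples at E17.5, where 8.17% of all genes were so placed. Flt1, which binds VEGFA and limits its supply, changed by 0.15 at P0 (95% interval from -0.14 to 0.45). A second Flt1 probe, beside the one used, changed by 0.20 at P0 (SE 0.23). A probe to another part of Flt1, not annotated to a RefSeq transcript, changed by -0.46 (SE 0.21). At E15.5 the second probe changed by -0.53 (SE 0.23), against -0.086 for the probe used. Flt4, the VEGFC receptor of lymphatic vessels, changed by -0.013 at P0 with a wide interval, from -0.50 to 0.48.

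Tek, the angiopoietin receptor, was the only endothelial gene called at E15.5, and it was lower in knockout. Its levels were -2.03, -1.78 and -1.87 in wild type and -2.39, -2.49 and -2.19 in knockout, without overlap, and it fell by 0.46 (SE 0.097, adjusted p = 0.0343 by limma). At E17.5 the change was -0.18 (adjusted p = 0.291) and at P0 it was 0.19 (adjusted p = 0.135). The probe behind these values lies at chr4:94540861-94540919 on build mm9. A second Tek probe, at chr4:94408487-94408546, changed by 0.098, 0.35 and -0.25 at the 3 stages, so the probes took opposite signs at each stage. The E15.5 call was lost with the replicate block (adjusted p = 0.106), and without any one of the 3 E15.5 wild type samples, E15.5 knockout replicate 1 or 2, or E17.5 wild type replicate 1 or 2.

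Of 9 other surface and secreted proteins, 5 rose at P0. Egfl7, a secreted factor of the vessel wall and the host gene of a microRNA, had P0 levels of 2.23, 1.89 and 2.10 in wild type and 2.93, 2.74 and 2.77 in knockout. The change of 0.74 (SE 0.12, adjusted p = 0.000611 by limma), 1.67-fold, was the largest of the 32, and the groups did not overlap. At E17.5 its knockout samples spread from 2.17 to 2.89 around wild type levels of 2.26, 2.27 and 2.46.

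Cd34, a sialomucin of vessels and blood progenitors, rose by 0.54 at P0 (SE 0.12, adjusted p = 0.00325 by limma), with levels of 3.82, 3.79 and 4.14 in wild type and 4.35, 4.44 and 4.58 in knockout. Its E17.5 change of 0.36 missed the threshold (adjusted p = 0.093), although the samples did not overlap. Robo4, a guidance receptor of endothelium, rose by 0.50 (SE 0.12, adjusted p = 0.00574), and Emcn, a sialomucin of veins and capillaries, by 0.44 (SE 0.11, adjusted p = 0.00721), both without overlap. Clec14a, an endothelial lectin, rose by 0.29 (SE 0.10, adjusted p = 0.0393). Its call was lost with the replicate block (adjusted p = 0.0537) and without E15.5 wild type replicate 2, E17.5 knockout replicate 2, P0 wild type replicate 2 or any one of the 3 P0 knockout samples. Without P0 wild type replicate 2 the change was 0.15 (adjusted p = 0.155).

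The remaining 4 of that group had small changes at P0, from -0.049 for Plvap, the protein of endothelial fenestrae, to 0.15 for Lyve1, a hyaluronan receptor of lymphatic endothelium. Between them lay Vwf, the adhesive glycoprotein stored in endothelium and platelets, at -0.034 and Mmrn2, a matrix protein of vessels, at 0.11. The groups overlapped for all 4.

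The BMP receptors were not called. Acvrl1, which encodes ALK1, changed by 0.25 at P0 (SE 0.096, adjusted p = 0.0577 by limma), with wild type levels of -2.30, -2.46 and -2.27 below knockout levels of -2.24, -1.95 and -2.08. Eng, its co-receptor endoglin, changed by 0.12 (adjusted p = 0.607).

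Of 6 genes of peptide and lipid signalling, Aplnr and Ece1 rose at P0. Ece1, the enzyme that makes active endothelin, rose by 0.32 (SE 0.10, adjusted p = 0.0275 by limma), with levels of 4.47, 4.50 and 4.35 in wild type and 4.82, 4.64 and 4.83 in knockout. The change was 0.14 (adjusted p = 0.289) with normexp and quantile normalization and 0.22 (adjusted p = 0.11) with quantile normalization, and neither was called. The call was also lost with the replicate block (adjusted p = 0.0861), without the run term (0.084), with only the P0 samples fitted (0.0518), without P0 wild type replicate 1 or 3, and without P0 knockout replicate 1 or 3. Aplnr, the apelin receptor, which marks venous and growing endothelium, had P0 levels of -0.73, -0.47 and -0.13 in wild type and -0.16, 0.13 and 0.33 in knockout. The groups met at 1 sample each, and the change was 0.55 (SE 0.14, adjusted p = 0.0095 by limma). A second, dimmer Aplnr probe, well above background on 15 of the 18 arrays, changed by -0.66 (SE 0.29), and the mean of both probes gave -0.057 (adjusted p = 0.837).

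Apln, the apelin ligand, changed by 0.16 (adjusted p = 0.331), and S1pr1, a sphingosine-1-phosphate receptor, by 0.21 (adjusted p = 0.315). Ramp2, a subunit of the adrenomedullin receptor, changed by 0.13 (adjusted p = 0.437). Nos3, the endothelial nitric oxide synthase, changed by 0.066 with a narrow interval, from -0.074 to 0.20.

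At P0, 16 of the 32 genes (50%) had all knockout samples above all wild type samples, where 23% of all genes did, and none had them all below, where 25.3% did. The 16 were 15 of the 17 called genes, all but Sox7 and Aplnr, and Acvrl1. At E15.5, 5 of the 32 had all knockout samples below wild type and 1 had them above, where 10.8% and 13% of all genes did. Those below were Cldn5, Emcn, Plvap, Sox7 and Tek, and the 1 above was Lyve1. At E17.5, 8 of the 32 had knockout above wild type without overlap, where 10.9% of all genes did: Aplnr, Cd34, Clec14a, Erg, Esam, Ramp2, Sox7 and Sox18.

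Whether the genotype difference itself changed with stage was tested as an interaction. Between E15.5 and P0 it grew for 15 of the 32 genes and shrank for none, where it grew for 9.51% of all genes and shrank for 10.4%. The increase was between 0.35 for Esam and 0.77 for Sox17, with adjusted p-values of 0.00352 to 0.0495 by limma. Without P0 wild type replicate 2 the count was 9. With the replicate block it was 11, and Sox7 (adjusted p = 0.0507), Fli1 (0.0561), Erg (0.0603), Ece1 (0.0767) and Esam (0.087) were no longer called. Between E17.5 and P0 it grew for 2 genes, where it grew for 4.28% of all genes and shrank for 6.12%: Pecam1, by 0.50 (SE 0.13, adjusted p = 0.028), and Tie1, by 0.49 (SE 0.12, adjusted p = 0.0276). With the replicate block Tie1 had an adjusted p of 0.0577. Neither was called without E17.5 wild type replicate 2 or 3, any one of the 3 E17.5 knockout samples, P0 wild type replicate 2 or P0 knockout replicate 3, and Pecam1 was not called without P0 knockout replicate 1. The count of endothelial genes called lay between 0 and 3 as samples were left out in turn. These interactions share the P0 samples, and the comparison with E15.5 was added after the data had been seen. E17.5 is the only stage with arrays of both runs. A step between stages within a genotype therefore leans on replicate 3 of E17.5 for the run term. An interaction compares the genotypes within each stage, where both had the same runs, so its size does not change with that term.

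The step from E17.5 to P0 was followed within each genotype. In wild type ovaries 12 of the 32 genes fell and 2 rose, where 21.2% of all genes fell and 22.1% rose, and the median change was -0.25. In knockout ovaries 9 fell and 5 rose, where 19% of all genes fell and 18.2% rose, and the median was -0.056. Fewer falls in one genotype than in the other were not tested as such beyond the 2 interactions above.

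Acvrl1, Apln, Clec14a, Flt1, Icam2, Plvap, Sox7 and Tek fell in both genotypes. Icam2 fell by 0.80 in wild type (adjusted p = 9.94e-05 by limma) and by 1.04 in knockout (adjusted p = 2.19e-05). Plvap fell by 0.75 and by 0.99, and had already fallen by 0.55 from E15.5 to E17.5 in wild type (adjusted p = 0.0329). For both, the E17.5 and P0 samples of a genotype did not overlap.

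Kdr, Pecam1, Robo4 and Sox17 were called lower in wild type and not in knockout, and of these the interaction was called for Pecam1. Pecam1 fell by 0.59 in wild type (adjusted p = 0.000447 by limma) and had a step of -0.086 in knockout, so that its P0 difference arose with a lower wild type level beside a knockout level near that of E17.5. Cldn5 rose in both genotypes, by 0.73 and 1.05, and so did Lyve1, by 0.73 and 0.79. Cd34, Egfl7 and Tie1 were called higher in knockout and not in wild type, by 0.40, 0.41 and 0.27, and Sox18 was called lower in knockout (-0.23, adjusted p = 0.0262) and not in wild type (-0.13, adjusted p = 0.179). The steps of Sox18 were not called different by the interaction test (-0.10, adjusted p = 0.53 by limma).

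From E15.5 to E17.5, Cd34, Clec14a and Vwf rose in both genotypes and S1pr1 fell in both. Vwf rose by 0.88 in wild type (adjusted p = 0.00707 by limma) and by 1.14 in knockout (adjusted p = 0.00145). Plvap and Sox7 were called lower in wild type, and Acvrl1, Sox18 and Tek higher in knockout. Among all genes, 15.3% rose and 11.1% fell in wild type, and 11.8% rose and 9.99% fell in knockout. The 6 wild type calls went to 0 without E17.5 wild type replicate 3 and to 3 without E15.5 wild type replicate 1 or 3. The 7 knockout calls went to 4 without E17.5 wild type replicate 1 or 3 or P0 wild type replicate 2, and to 4 with the replicate block.

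**Figure D3:**
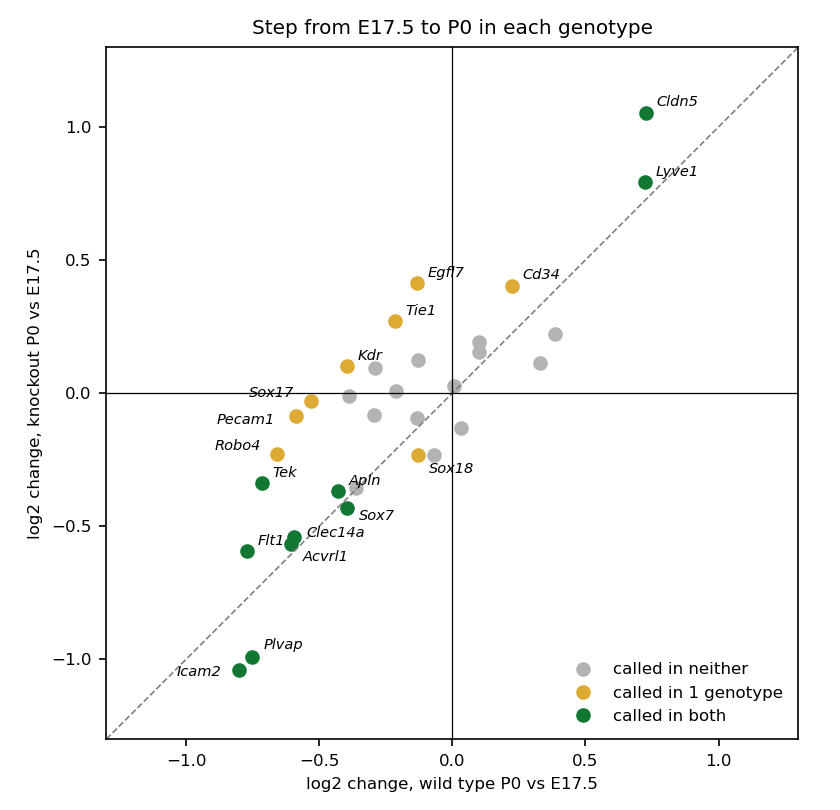
Log2 change from E17.5 to P0 in wild type (horizontal axis) and in knockout ovaries (vertical axis), a point for each of the 32 endothelial genes, colored by whether the change was called in both genotypes, in 1 or in neither; the dashed line marks equal change. The 8 genes at the lower left fell in both, while Pecam1, Robo4, Sox17 and Kdr lie to the left of 0 with knockout changes between -0.23 and 0.10.

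Other genes of vessel growth and arteriovenous identity were taken from a list of 31 ligands, co-receptors and nuclear factors, 30 of them measured. At P0, 10 rose and 5 fell, where 18.3% of all genes rose and 16.1% fell, so the share that fell is near that of all genes. The median was 0.095. Among ligands, Angpt2, the context-dependent angiopoietin that acts on Tek, rose by 1.12 (SE 0.14, adjusted p = 0.000116 by limma), Cxcl12 by 0.63, adrenomedullin (Adm) by 0.58 and Vegfc by 0.37. Bmp4 fell by 0.77. Calcrl, the receptor partner of Ramp2, rose by 0.66, and Ephb4, the venous ephrin receptor, by 0.43.

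Among other genes of that list at P0, Jag1, a Notch ligand, fell by 1.59 (SE 0.17, adjusted p = 3.77e-05 by limma), and the Notch target genes Hey2 and Hey1 fell by 1.32 and 1.04. Notch4, the Notch receptor of endothelium, rose by 0.21 (adjusted p = 0.0296). Nr2f2, a factor of venous identity that ovarian stroma also expresses, rose by 0.39 at E17.5 (adjusted p = 0.0489) and by 0.62 at P0 (adjusted p = 0.000875). Id1, a target of BMP signalling, fell by 0.94 at E15.5 (adjusted p = 0.00996) and by 0.81 at E17.5 (adjusted p = 0.0118), while Id3 rose by 0.76 at P0. Many of these genes are also expressed outside endothelium, and the source of their signal in the whole ovary was not tested.

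Markers of the other cell types of the organ were counted at P0 in the same way, to be read against the 18.3% of all genes that rose and the 16.1% that fell. Of 10 germ cell genes 4 fell and 1 rose: the changes were -5.32 for Zp3, -5.04 for Npm2, -3.73 for Pou5f1 and -3.30 for Gdf9, genes of oocytes or germ cells, and 0.86 for Dazl. The list's mean level was 3.35 to 3.36 in wild type and 1.48 to 1.77 in knockout. Of 8 granulosa cell genes 4 rose and none fell, among them Lhx9 and Gata4 by 0.94 each, and the mean was 1.56 to 1.67 in wild type and 1.86 to 2.08 in knockout. Of 12 mural cell genes, those of pericytes and smooth muscle, 4 rose (Kcnj8 by 1.00, Rgs5 by 0.53, Mcam by 0.44, Abcc9 by 0.39) and Cnn1 fell by 0.84. Of 5 lymphatic genes 2 rose, Ccl21a by 0.97 and Mmrn1 by 0.58. Of 8 stroma genes 2 rose and none fell, and of 6 genes of mesonephros and tubule 1 rose and 1 fell, shares near those of all genes. The part of these changes in the endothelial values, which are relative to each array's own signal, was not tested.

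Blood cells share some of the endothelial genes: Pecam1, Vwf, Cd34, Erg and Fli1 are also expressed in platelets or blood progenitors, and Lyve1 in some macrophages. At P0 none of 12 measured red cell genes and none of 8 platelet genes was called, with medians of -0.87 and -0.31 and 1 gene of each list lower at an unadjusted p under 0.05. The platelet mean was -4.10 to -3.45 in wild type and -4.26 to -3.93 in knockout. Of 10 macrophage genes 2 rose, C1qa by 0.43 and Adgre1 by 0.38, a share near the 18.3% of all genes. At E17.5 all 12 red cell and all 8 platelet genes had changes above 0, with medians of 1.60 and 1.04. None was called by limma, and 1 red cell and 4 platelet genes had an unadjusted p under 0.05, all higher. Knockout replicate 3 stood apart there, with a platelet mean of -1.24 where the other E17.5 samples lay between -3.81 and -3.34. Without it the 4 calls of Erg, Fli1, Sox7 and Sox18 were not made. The same held, with the same changes, without E17.5 wild type replicate 3, the other E17.5 array of its run. The part of knockout replicate 3 in these calls was not tested otherwise. Within the run of replicates 1 and 2, where the genotypes were on different slides, the 4 differences were 0.31, 0.45, 0.42 and 0.38.

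**Figure D4:**
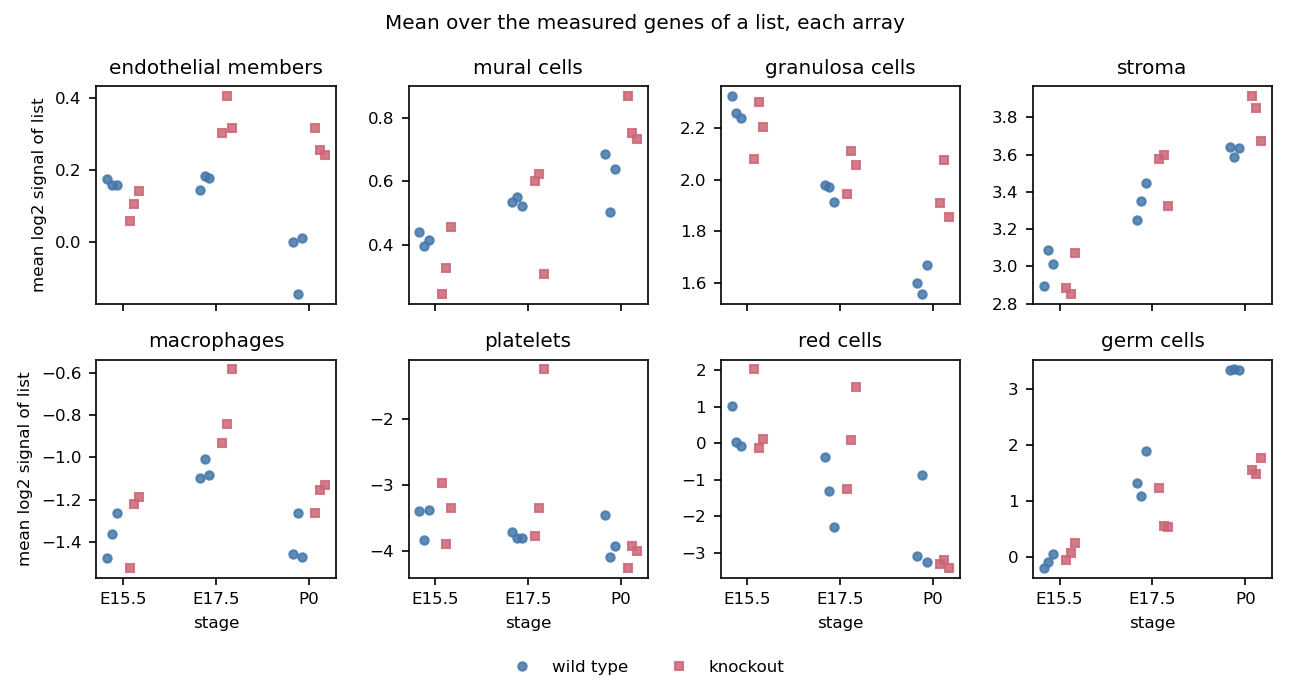
Mean log2 signal, relative to the array's 75th percentile, over the measured genes of a marker list (vertical axis, own scale in each panel), by stage, with a circle for each wild type array and a square for each knockout array. The endothelial mean is higher in knockout at E17.5 and P0, the germ cell mean lower at P0 (1.48 to 1.77 against 3.35 to 3.36), and knockout replicate 3 of E17.5 lies highest in the platelet and red cell panels of that stage.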

How the data were processed

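The deposited scanner files hold a background-subtracted intensity per spot, which the authors obtained in Agilent Feature Extraction on array design 014868. Its version is 10.7.3.1 in those headers but 9.5 in the submitters' notes on processing. The deposited series matrix holds log2 values, equal to these intensities plus 1 constant per array (75th percentile 9.62, medians 6.17 to 6.46), and served as an alternative. Control and outlier spots were left out. The log2 intensity minus the array's 75th percentile was analysed. Probes well above background on all 3 arrays of a group were kept (29201 of 41174), and the brightest stood for a gene. Coordinates of probes are those of the files (mm9).

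limma 3.58.1 in R 4.3.3 (lmFit, eBayes) fitted the 6 groups and the run over 18 arrays, leaving 11 residual degrees of freedom. The run was read from the form of the file names. The script was tested on simulated data. With 3 arrays per group the number of arrays limits the precision. The endothelial genes and the other lists were chosen with earlier results of these data known. The groups of endothelial genes by role were formed with their values known, so a ranking of these groups is no test. All 32 endothelial genes could be named, and of other lists the genes called between genotypes or with the smallest adjusted p.

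Deviations of same-numbered samples from their group means correlated at 0.12, 0.40 and 0.45 at E17.5. They correlated at 0.18, 0.20 and -0.12 at E15.5 and at 0.15, 0.10 and 0.081 at P0. At E17.5 replicate 3 of both genotypes came from the other run, and the run was not removed from these deviations. The values therefore cannot tell a pairing of the samples from a shared run. Alternatives changed the background correction, scaling, filter, run term, slide, replicate block, probe choice, moderation, stages fitted and samples left out.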

Additional observations from a re-analysis of the deposited data

Results flagged for a closer look

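The genotype difference itself changed between stages for the endothelial genes below, by limma's interaction test at an adjusted p under 0.05. From E17.5 to P0 it grew by 0.50 for Pecam1 and by 0.49 for Tie1. From E15.5 to P0 it grew by 0.77 for Sox17, 0.76 for Egfl7, 0.75 for Cldn5, 0.66 for Cdh5, 0.66 for Tie1, 0.66 for Tek, 0.65 for Fli1 and 0.65 for Robo4. It grew by 0.60 for Pecam1, 0.60 for Cd34, 0.57 for Emcn, 0.54 for Ece1, 0.40 for Sox7, 0.39 for Erg and 0.35 for Esam. For Tek the difference went from -0.46 at E15.5 to 0.19 at P0, and with the mean of both its probes the increase was 0.15 (adjusted p = 0.626 by limma).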

How the results depend on the processing

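At P0 the count of 17 endothelial genes stayed between 14 and 18 as each sample was left out and fell to 10 with only the P0 samples fitted, where Aplnr, Cldn5, Clec14a, Ece1, Erg, Sox7 and Sox17 were not called. The P0 median was 0.24 with normexp and quantile normalization and 0.44 with scaling by the array median, which moved the median of all genes to 0.14, and 0.23 to 0.31 without one sample. Aplnr at P0 turned to -0.057 (adjusted p = 0.837 by limma) with the mean of its probes.

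The E17.5 count of 4 became 0 with scaling by the array median, without the run term, with E17.5 alone and without both E17.5 arrays of run A, an alternative chosen after seeing the data. It was 1 with no filter or with a random slide block, 2 with the mean of probes and 2 with the replicate block. Leaving out samples gave 0 to 5, with a median of 0.16 to 0.22. The E15.5 count of 1 became 0 with no filter, no run term, the slide block, the replicate block, the mean of probes and E15.5 alone, and 0 to 1 without one sample, with a median of -0.11 to -0.039. At E15.5 and P0 the replicate block gave 0 and 15 calls.

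In the wild type step from E15.5 to E17.5 the median, 0.0049, turned to -0.055 with normexp, -0.20 with scaling by the array median and -0.076 without E17.5 wild type replicate 3 (range -0.076 to 0.041, with 0 to 7 calls). In the knockout step it was 0.16 with normexp, 0.065 with scaling by the array median and 0.16 without the run term. The calls there, 7, became 4 with that scaling, 4 with no filter, 4 with the replicate block, 11 without the run term and 4 to 8 without one sample. The wild type step from E17.5 to P0 had 22 calls and a median of -0.41 with scaling by the array median, a median of -0.18 with the mean of probes, and -0.28 to -0.16 with 12 to 15 calls without one sample. The knockout step had 10 to 15 calls and a median of -0.12 to 0.011, the last without E17.5 knockout replicate 2.

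The interaction between E17.5 and P0 had 5 calls with normexp, 6 with scaling by the array median, 0 with no filter or no run term, and 1 with only those stages or without both E17.5 arrays of run A. Its median, 0.080, was 0.14 with quantile normalization and 0.24 with scaling by the array median, and 0.049 to 0.16, with 0 to 3 calls, without one sample. The interaction between E15.5 and P0 had 9 calls without the run term, a median of 0.57 with scaling by the array median and 0.33 with the mean of probes, and 9 to 17 calls with a median of 0.30 to 0.42 without one sample. Causes were not tested.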

Other observations

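Of the 32 endothelial genes, 10 had more than 1 probe well above background. At P0 the other probes of Fli1, Sox17, Sox7 and Cdh5 changed by 0.37, 0.38, 0.30 and 0.66, with the sign of the probe used. Those of Apln, Vwf and Lyve1 changed by -0.048, 0.14 and -0.21, against 0.16, -0.034 and 0.15 for the probes used.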
